A study of Mus musculus with 8 samples.

Results

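The 8 genes described here encode proteases, IgE receptor chains and the histamine-forming enzyme of mast cells and basophils: Cma1, Cpa3, Mcpt4, Mcpt8, Tpsb2, Ms4a2, Fcer1a and Hdc. They were taken as every probe set that the platform annotation pairs with 1 of these gene symbols, which gave 10 probe sets for 8 genes, out of 22626 probe sets and 12393 named genes on the array. The genes were chosen by their measured intensities across the sample groups, so their levels and differences are a description and carry no p-values. All 10 probe sets passed the filter on low values, an intensity of 38.4 or more on at least 2 of the 8 arrays, and 53 of their 80 single values reached that level.

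The samples were CD45+/Sca1+ cells of C57BL/6 mice aged 6 to 8 weeks, where CD45 marks leukocytes in general and Sca1 is found on murine blood stem cells as well as on some differentiated cells. There were 4 groups with 2 samples each, 1 array per sample. The first group came from bone marrow (BM) and the second from muscle with no stated treatment, called uninjured muscle here. The third came from muscle injured with cardiotoxin (Ctx), a snake venom toxin that destroys muscle fibres, in mice without a transplant, and the fourth from cardiotoxin-injured muscle of mice with a bone marrow transplant (BMT). All groups share the strain and the sort on CD45 and Sca1. The time after injury, the transplant's donor and how the host was conditioned were not stated in the labels used here, and there was no uninjured muscle of transplanted mice among the samples. The injured samples with and without a transplant therefore differ in the transplant and in whatever went with it.

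Mast cells are long-lived tissue cells that arise from bone marrow progenitors and mature in connective tissue, where they store histamine and proteases in granules bound to the proteoglycan serglycin. Antigen that cross-links IgE on the high-affinity IgE receptor releases the granules. Basophils carry the same receptor and make histamine too, but circulate in the blood and hold fewer protease types. In mouse, chymases, tryptases and carboxypeptidase A3 mark connective tissue mast cells, while the granzyme-like protease of Mcpt8 marks basophils. Skeletal muscle holds mast cells in the connective tissue around its fibres and vessels.

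The arrays had been scaled by the submitters to a common level, with medians between 56.3 and 75.7. The 2 uninjured muscle arrays were less alike (r = 0.90 over all 22626 probe sets, tested or not) than the arrays of the other groups (r = 0.95 in each). The ratio of 3′ to 5′ control probe sets of Gapdh, a sign of RNA integrity and labelling, reached 24.4 and 10.7 for bone marrow and 46.9 and 13.6 for uninjured muscle, against 0.808 to 0.882 on the 4 injured arrays. This ratio moves with every comparison of injured against uninjured muscle below, and its part in them was not tested. Ptprc, the gene of the sorted protein CD45, lay between 4924 and 6996 on all 8 arrays and passed the test in 0 of the 4 comparisons. In bulk RNA, fewer cells of a type and less RNA per cell cannot be told apart, which holds for every level below.

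Among the proteases, the mast cell chymases and carboxypeptidase A3 shared a pattern: high in uninjured muscle, still present in untransplanted injured muscle and low in transplanted injured muscle. Cma1 (gene ID 17228, chromosome 14) encodes mast cell protease 5, a chymase of connective tissue mast cells. Its intensity was 36.7 and 40.2 in bone marrow, but 2402 and 2258 in uninjured muscle, 1428 and 1333 in untransplanted injured muscle, and 92.0 and 67.1 in transplanted injured muscle. No 2 groups overlapped, and both uninjured muscle arrays stood highest. On the log2(intensity + 4) scale, which understates changes of low genes, uninjured muscle lay 5.78 (SE 0.30) above bone marrow, or 55.0-fold. Transplanted lay 4.07 (SE 0.30) below untransplanted injured muscle, or 16.7-fold.

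Cpa3 (gene ID 12873, chromosome 3) encodes carboxypeptidase A3, a metalloprotease stored with the chymases and found in mast cells, basophils and their progenitors. It measured 262 and 201 in bone marrow, but 3734 and 2378 in uninjured muscle, 882 and 766 in untransplanted injured muscle and 53.8 and 55.5 in transplanted injured muscle. Again no groups overlapped, but here the transplanted injured arrays, not bone marrow, were lowest. Uninjured muscle was 12.8-fold above bone marrow (log2 difference 3.67, SE 0.33). Untransplanted injured muscle was 3.61-fold below uninjured muscle (log2 difference -1.85), and transplanted injured muscle was 14.1-fold below untransplanted injured muscle (log2 difference -3.82).

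Mcpt4 (gene ID 17227, chromosome 14) encodes mast cell protease 4, the mouse chymase usually regarded as nearest in action to the human chymase. The values were 3.39 and 18.4 in bone marrow, but 312 and 762 in uninjured muscle, 551 and 411 in untransplanted injured muscle, and 6.85 and 8.24 in transplanted injured muscle. Uninjured and untransplanted injured muscle overlapped (log2 difference -0.03, SE 0.62), and so did bone marrow and transplanted injured muscle. Both low groups lay under the filter value on each array, so folds are given as bounds of the arithmetic mean against that value. Uninjured muscle was at least 12.8-fold higher than bone marrow by this measure, and untransplanted injured muscle at least 11.5-fold higher than transplanted injured muscle. The filter value is not a detection limit.

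Tpsb2 (gene ID 17229, chromosome 17) encodes the tryptase mast cell protease 6. It measured 6.22 and 5.04 in bone marrow, but 43.7 and 900.0 in uninjured muscle, 152 and 168 in untransplanted injured muscle, and 21.5 and 29.6 in transplanted injured muscle. The uninjured muscle arrays were 20.6-fold apart and straddled the untransplanted injured arrays, so the difference between uninjured muscle and bone marrow ran from 2.31 to 6.56 across the 13 alternative settings around 4.43 (SE 1.12). Untransplanted and transplanted injured arrays did not overlap (log2 difference -2.49, SE 1.12). A second Tpsb2 probe set stayed between 1.51 and 40.5 on all 8 arrays, and its neighbouring groups overlapped throughout. The correlation of the 2 Tpsb2 probe sets over the 8 arrays was 0.34. Tryptase genes are close copies of each other, so a probe set may also take up RNA of Tpsab1, the gene of mast cell protease 7.

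Mcpt8 (gene ID 17231, chromosome 14), the granzyme-like protease of basophils, had a different order. It was highest in bone marrow at 418 and 528, followed by uninjured muscle at 141 and 135. All 4 injured arrays were low, with 6.88 and 1.85 without and 5.36 and 6.80 with a transplant. Bone marrow and uninjured muscle did not overlap (log2 difference -1.74, SE 0.44), and uninjured muscle was at least 3.35-fold above either injured group. The injured groups overlapped, both under the filter value. The summed intensity of 9 early granulocyte genes (Ngp and S100a9 the highest) ran alongside, with 42152 to 53426 in bone marrow, 17537 to 31112 in uninjured muscle, 404 to 436 in untransplanted and 660 to 716 in transplanted injured muscle. A list of 10 eosinophil genes, 6 of them measured and led by Prg2 and Epx, gave 280 to 1129, 259 to 286, 70.2 to 82.0 and 44.4 to 54.6 in the same order. The part of these cells in the Mcpt8 pattern was not tested.

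**Figure D1:**
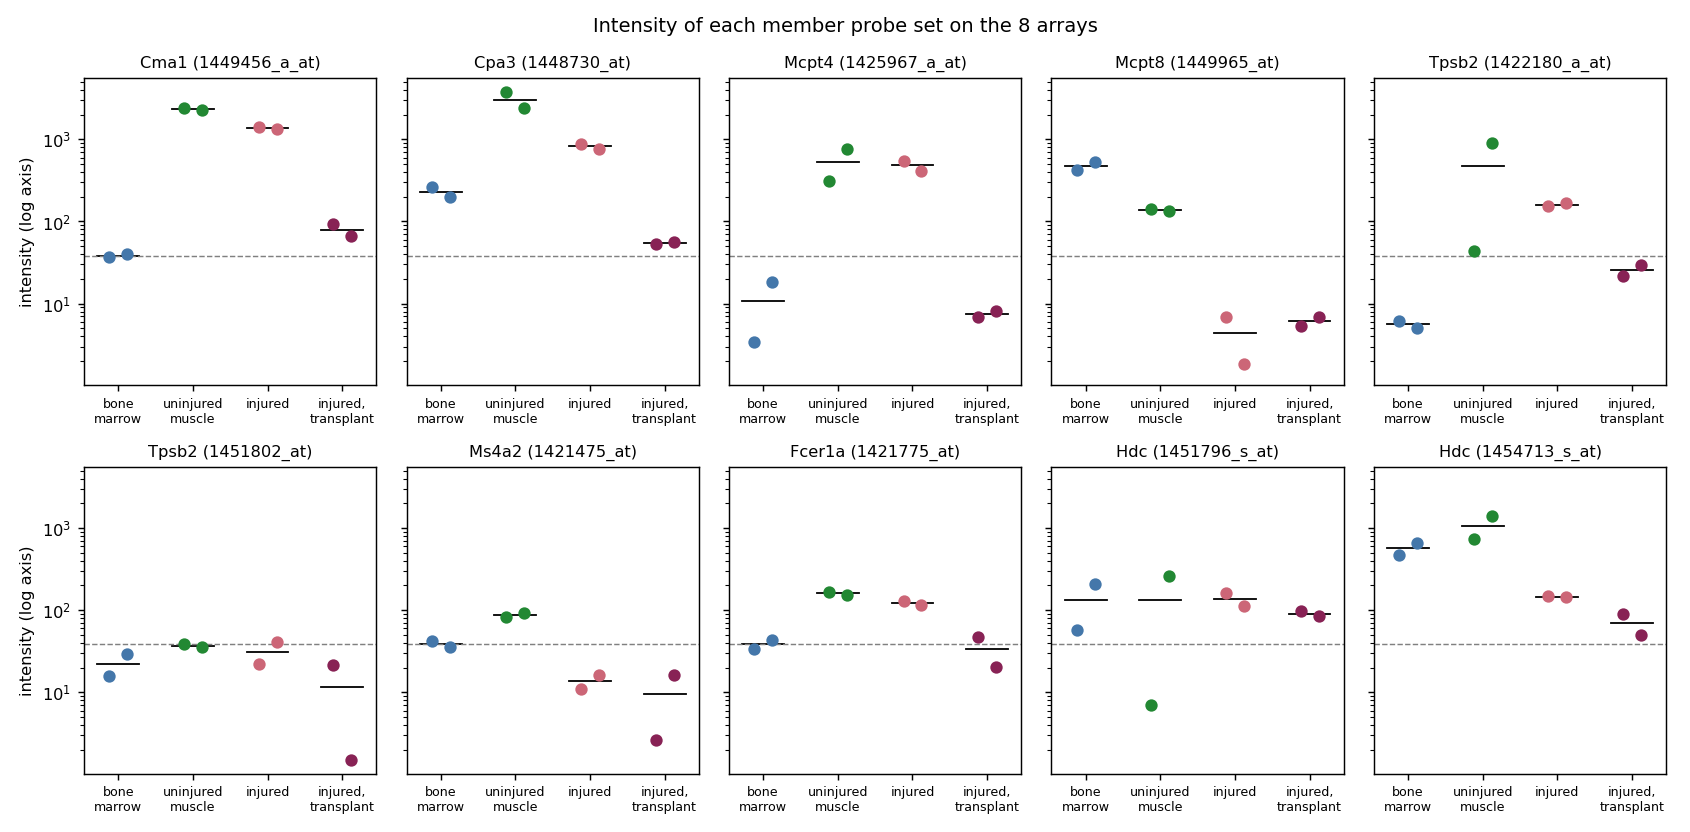
Intensity (log axis) of the 10 probe sets of the 8 genes, 1 panel each, with 1 point per array, a bar at the group mean of 2 arrays and a dashed line at the filter value of 38.4. Cma1, Cpa3 and Mcpt4 are high in uninjured and untransplanted injured muscle and low in transplanted injured muscle, whereas Mcpt8 is highest in bone marrow and low on all 4 injured arrays.

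The DNA before the start of 4 protease genes is shown here, of which Cma1, Mcpt4 and Mcpt8 lie on the same chromosome. In the reference annotation (GRCm38.p6) Mcpt4 and Mcpt8 are neighbouring coding genes, and Ctsg, the gene of the granule protease cathepsin G, lies on the other side of Mcpt8. The 250 bases before the annotated start are given 5′ to 3′ on the gene's strand, which is the minus strand for all 4, from RefSeq on GRCm38.p6. Capitals mark a GATA motif, the letters GATA with A or T before them and A or G after them, on either strand, which GATA factors such as GATA2 of mast cells and basophils are known to bind. The windows are chr3:20242182-20242431 for Cpa3, chr14:55944676-55944925 for Cma1, chr14:56062311-56062560 for Mcpt4 and chr14:56085198-56085447 for Mcpt8.
Cpa3: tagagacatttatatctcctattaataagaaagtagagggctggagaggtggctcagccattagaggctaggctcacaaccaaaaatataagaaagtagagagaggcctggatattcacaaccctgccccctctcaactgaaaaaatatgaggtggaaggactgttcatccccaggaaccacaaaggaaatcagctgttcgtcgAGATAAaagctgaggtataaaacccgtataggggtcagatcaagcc
Cma1: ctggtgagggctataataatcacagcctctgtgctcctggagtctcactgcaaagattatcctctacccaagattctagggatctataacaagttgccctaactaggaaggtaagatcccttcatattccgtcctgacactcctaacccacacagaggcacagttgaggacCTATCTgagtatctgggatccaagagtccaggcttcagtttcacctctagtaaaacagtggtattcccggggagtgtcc
Mcpt4: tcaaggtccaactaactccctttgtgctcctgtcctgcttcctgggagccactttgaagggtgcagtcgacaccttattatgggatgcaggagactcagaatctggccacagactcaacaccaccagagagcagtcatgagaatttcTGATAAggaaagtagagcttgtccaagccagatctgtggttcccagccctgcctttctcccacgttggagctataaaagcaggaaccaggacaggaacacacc
Mcpt8: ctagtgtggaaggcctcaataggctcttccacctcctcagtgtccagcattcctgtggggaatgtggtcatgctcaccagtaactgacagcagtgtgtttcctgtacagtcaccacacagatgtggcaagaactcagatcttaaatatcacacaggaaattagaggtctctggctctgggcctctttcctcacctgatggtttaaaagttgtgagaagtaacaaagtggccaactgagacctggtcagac
The motif begins 46 bases before the start in Cpa3, 79 in Cma1 and 103 in Mcpt4, and was not among the letters of the Mcpt8 window. Promoters of 7 of the 8 genes were in the table used, all but Tpsb2, and 6 of the 7 held the motif, against 26.54% of 32851 promoters of the same length. Ms4a2 held 3 matches, Fcer1a 1 and Hdc 1. The motif of MITF, the letters CACATG on either strand or CACGTG, was found in 1 of the 7 (Fcer1a), against 17.62% of all promoters. A match is a run of letters and not a measured binding site, and its part in the levels was not tested.

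Of the IgE receptor, the alpha and beta chains are among the members. Fcer1a (gene ID 14125, chromosome 1) encodes the IgE-binding alpha chain, which is restricted to mast cells and basophils in most mouse tissues. It measured 33.3 and 43.3 in bone marrow, but 166 and 154 in uninjured muscle, 130 and 115 in untransplanted injured muscle, and 47.4 and 20.2 in transplanted injured muscle. Both muscle groups without a transplant were above every other array, and bone marrow overlapped with transplanted injured muscle. Uninjured muscle was 3.90-fold above bone marrow (log2 difference 1.96, SE 0.44), and transplanted injured muscle 3.58-fold below untransplanted injured muscle (log2 difference -1.84, SE 0.44).

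Ms4a2 (gene ID 14126, chromosome 19) encodes the beta chain, which amplifies the receptor's signal. It measured 42.1 and 35.9 in bone marrow, with 83.2 and 92.4 in uninjured muscle, 10.9 and 16.2 in untransplanted injured muscle and 2.64 and 16.2 in transplanted injured muscle. Only the uninjured muscle arrays stood clearly above the filter value, at least 2.17-fold above either injured group. The injured groups overlapped. In untransplanted injured against uninjured muscle the log2 difference was -2.40 (SE 0.60) for Ms4a2 and -0.38 (SE 0.44) for Fcer1a, and whether the chains differ in this was not tested.

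Hdc (gene ID 15186, chromosome 2) encodes histidine decarboxylase, the enzyme that makes histamine in mast cells, basophils and some other myeloid cells. It measured 465 and 663 in bone marrow, with 732 and 1404 in uninjured muscle, 147 and 146 in untransplanted injured muscle, and 89.9 and 50.2 in transplanted injured muscle. The groups did not overlap, and all 4 injured arrays were below all 4 uninjured ones. Untransplanted injured muscle was 6.78-fold below uninjured muscle (log2 difference -2.76, SE 0.43). A second Hdc probe set did not follow this order: it ran from 7.09 to 257, with those extremes on the 2 uninjured muscle arrays, and correlated with the first at -0.05. Both Hdc probe sets carry the suffix _s_at, which marks sets whose probes can match more than 1 gene.

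In uninjured muscle 8 of the 8 genes were at or above the filter value on both arrays, against 3 in bone marrow, 6 in untransplanted and 3 in transplanted injured muscle. Per single array, 62.0 and 65.1% of all probe sets, controls included, reached that value in uninjured muscle. The shares were 57.2 and 60.7% in bone marrow, 58.3 and 61.0% in untransplanted and 57.0 and 58.4% in transplanted injured muscle. As 2 arrays were enough to pass the filter, 1 group could supply them, and nothing is read from the 8 of 8. Of the 4 comparisons, 3 share the uninjured muscle arrays and the other shares an injured group with each of 2 of them, so their values are given side by side and not set against each other. Uninjured muscle against bone marrow had a median log2 difference of 2.82 over the 8 genes, or 2.08 with all values under 38.4 set to it, against -0.06 over all 9506 tested genes, with 7 genes above 0 and Mcpt8 below. In the limma fit across all probe sets, 4 of the 8 genes passed the adjusted threshold of 0.05 as higher in muscle (Cma1, Cpa3, Mcpt4 and Fcer1a) and 0 as lower, where 5.85% of all tested genes were called higher and 1.4% lower. Without the second uninjured muscle array more probe sets were called lower (1864) than higher (1257). Since the genes were chosen with these levels known, nothing is read from that count or from those that follow. Fibroblast genes moved along with them: the 8 listed fibroblast genes (Col3a1 and Col1a2 the highest) summed to 150 to 317 in bone marrow and 9044 to 32337 in uninjured muscle, with 8 of 8 called higher. At 6 of the 8, Col3a1, Dcn, Lum, Pdgfra, Postn and Sparc, both bone marrow arrays were under the filter value. The macrophage genes C1qb, Csf1r and 6 others summed to 3544 to 4251 in bone marrow and 17192 to 31154 in uninjured muscle, with 6 of 8 called higher, and 1 of 9 early granulocyte genes was called lower. The part of these cells in the members' differences was not tested.

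**Figure D2:**
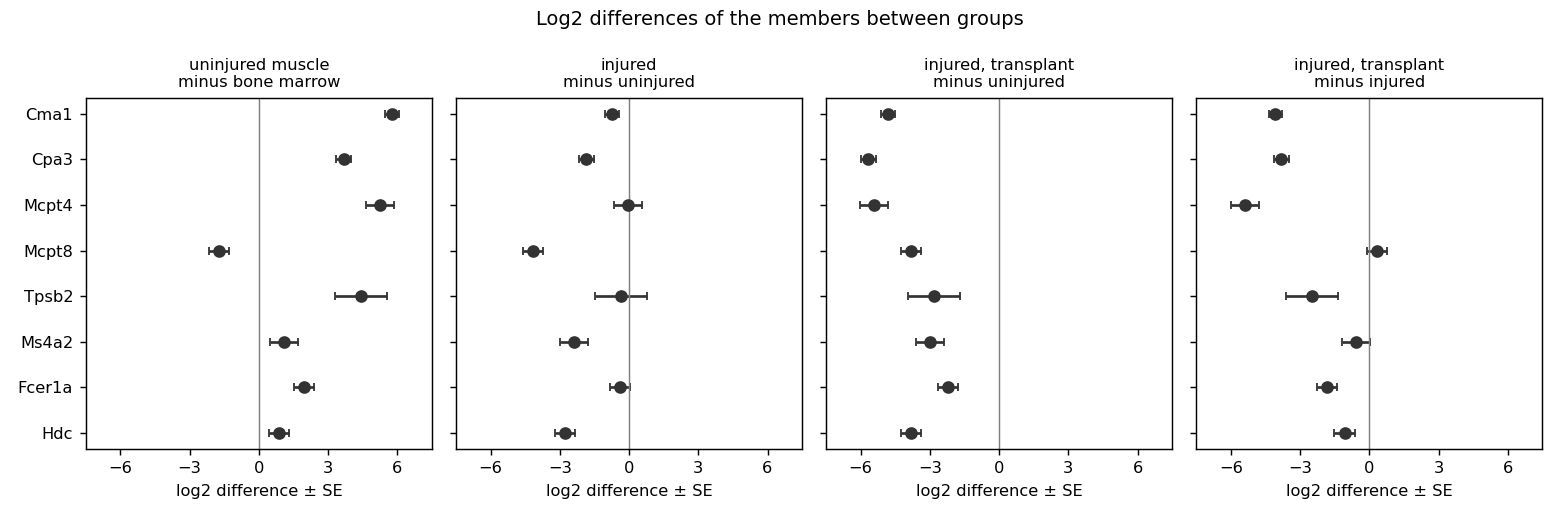
Log2 difference (x axis, with bars of 1 SE from the limma fit, n = 2 arrays per group) of the 8 genes in the 4 comparisons, 1 panel each. Cma1, Mcpt4 and Cpa3 lie far right of 0 in uninjured muscle against bone marrow and far left of 0 in transplanted against untransplanted injured muscle, with Mcpt8 the other way in the first and near 0 in the last.

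Untransplanted injured against uninjured muscle gave a median of -1.30 over the 8 genes and -0.25 over all genes. With values under 38.4 set to it, the median of the 8 was -0.93. All 8 differences were below 0 in the main fit. Across the 13 alternative settings those of Mcpt4 (-0.67 to 0.60) and Tpsb2 (-2.46 to 1.78) changed sign. How many of all genes were below 0 was not counted, so nothing is read from the 8. Where both injured arrays reached the filter value, the differences ran from -0.03 (Mcpt4) to -2.76 (Hdc). Mcpt8 and Ms4a2, whose injured arrays lay under it, had differences of -4.15 and -2.40, with folds given above as bounds. As lower in injured muscle, 4 genes were past the threshold (Cpa3, Mcpt8, Ms4a2 and Hdc) and 0 as higher, against 15.1% and 8.77% of all genes. The count was 2 without either array of the untransplanted injured group. The chymase Mcpt4, the tryptase Tpsb2 and Fcer1a had differences smaller than their SE. Macrophage genes stood beside these differences: the 8 listed (C1qb and Csf1r the highest) summed to 17192 to 31154 in uninjured and 59796 to 64036 in untransplanted injured muscle, with 5 called higher and 1 lower, while 9 of 9 early granulocyte genes were called lower and 1 of 8 fibroblast genes higher. Their part in the members' values was not tested.

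Transplanted injured against uninjured muscle gave a median of -3.83 over the 8 genes (-2.92 with values under 38.4 set to it), against -0.31 over all genes. Here 7 of the 8 were past the threshold as lower, all but Tpsb2, and 0 as higher, where 20.8% of all genes were called lower and 10.5% higher. Among the genes not limited to a bound, the differences ran from -2.22 (Fcer1a) to -5.67 (Cpa3). At 4 of the 8 genes, Mcpt4, Mcpt8, Tpsb2 and Ms4a2, both transplanted arrays were under the filter value, against 0 of the 8 in uninjured muscle. Of all probe sets, controls included, 57.0 and 58.4% reached that value on the single transplanted arrays and 62.0 and 65.1% on the uninjured muscle arrays. As uninjured muscle alone could supply the 2 arrays that the filter asks for, nothing is read from these counts. Of the marker lists, 9 of 9 early granulocyte genes and 3 of 8 fibroblast genes were called lower in this comparison, and of the 8 macrophage genes 4 were called higher and 1 lower. Their part in the members' values was not tested.

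Of the members, Cma1, Cpa3, Mcpt4, Tpsb2 and Fcer1a were lower on both transplanted than on both untransplanted injured arrays, Hdc too, and Mcpt8 and Ms4a2 overlapped. How many of all genes were apart in this way was not counted, so nothing is read from it. Transplanted against untransplanted injured muscle had a median log2 difference of -2.16 over the 8 genes (-1.69 with values under 38.4 set to it) and 26 of all genes called lower (0.274% of tested genes) and 4 called higher (0.0421%). Mcpt4, Cma1 and Cpa3 were 3 of the 26 lower ones, and 0 of the 8 genes were called higher. Nothing is read from these calls either, since the values were known when the genes were chosen. No probe set at all was called when any 1 of the 4 injured arrays was left out (961 to 1071 had an unadjusted limma p under 0.05), and the 3 protease calls were lost with them. Some of the 13 alternative settings cannot move the differences of these 3 genes, as they keep the same 4 injured arrays. These are the filter, the replicate block, the fit of only those arrays and leaving out a bone marrow or uninjured muscle array. Under the others the differences stayed negative, from -4.28 to -3.85 for Cma1 and from -3.92 to -3.57 for Cpa3. That of Mcpt4, given above as a bound, moved with the pseudocount, from -5.38 to -4.39 at 16. With only the 4 injured arrays fitted, 5 of the 8 genes were called lower. Calls rose across the array in that fit, to 756 probe sets lower and 369 higher, against 37 and 4. Mcpt8, Ms4a2 and Hdc differed by 0.33, -0.58 and -1.07, with SEs of 0.44, 0.60 and 0.43.

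The fibroblast sum was likewise lower with the transplant, 4514 to 4788 against 25344 to 25599. Of the 8 fibroblast genes, 1 passed the test, Postn, the gene of the matrix protein periostin, named here after its value was seen (log2 difference -3.77, limma adjusted p = 0.0491). Sparc, Col1a2, Col3a1, Lum and Col1a1 were also lower at an unadjusted limma p under 0.05. The median log2 difference of the 8 fibroblast genes was -2.16, as was that of the 8 members, against -0.00 over all genes. The first uninjured muscle array had a fibroblast sum of 32337 and the second of 9044. In that order Cma1 measured 2402 and 2258, Cpa3 3734 and 2378 and Mcpt8 141 and 135. The other 2 proteases had the reverse order, with Mcpt4 at 312 and 762 and Tpsb2 at 43.7 and 900. The part of fibroblast RNA in the protease differences was not tested. Macrophage sums were closer, 56790 to 59414 with and 59796 to 64036 without a transplant, and 0 of 8 macrophage genes were called (limma, 2 of 8 at an unadjusted p under 0.05).

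Taking the 8 genes among themselves over the 8 arrays, Cma1, Mcpt4 and Fcer1a followed each other most closely, with Pearson r of log2 values of 0.96 for Cma1 and Mcpt4, 0.94 for Cma1 and Fcer1a and 0.94 for Mcpt4 and Fcer1a. Ms4a2, Hdc and Mcpt8 formed the other close set, with r of 0.87 for Ms4a2 and Hdc, 0.83 for Mcpt8 and Hdc and 0.75 for Mcpt8 and Ms4a2. Between these sets r ran from -0.25 for Cma1 and Mcpt8 to 0.48 for Fcer1a and Hdc. Tpsb2 was nearer to the first set (0.85 to Mcpt4) than to the second (0.21 to Ms4a2). Cpa3 had 0.86 to Cma1, 0.86 to Mcpt4 and 0.91 to Fcer1a, against 0.70 to Ms4a2, 0.68 to Hdc and 0.26 to Mcpt8. These values describe 8 arrays in 4 groups and rest on the same arrays for every pair.

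**Figure D3:**
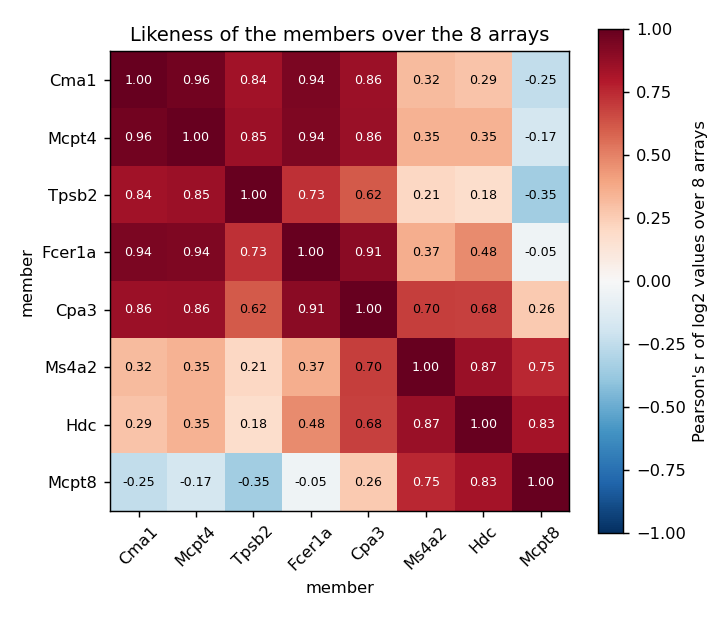
Pearson r of log2 values over the 8 arrays for each pair of the 8 genes (colour scale from -1 to 1, value in each cell, probe set of highest mean). Cma1, Mcpt4 and Fcer1a form a block with r of 0.94 to 0.96, and Mcpt8, Ms4a2 and Hdc a block with r of 0.75 to 0.87.

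The genes elsewhere on the array whose values most resembled each member were ranked by the same r among 8241 genes with a measurable signal. For Cma1 they were Myl1 (r = 0.99), Copz2, Fn1, Fkbp9 and Cavin1. For Cpa3 they were Ebf2 (0.99), Vsig4, Igf2, Fgfr1 and Cdr2, and for Mcpt4 Nfatc4 (0.98), Col5a3, Vasn, Rab34 and Ddr2. Mcpt8 was most like Itpr2 (0.99), Vps54, Lcn2, Crebbp and Kctd14. For Tpsb2 the list was Ext1 (0.97), Batf3, Ehd2, Wnt11 and Vasn, and for Fcer1a Zcchc14 (0.99), Cavin1, Peg3, Birc3 and Sult1a1. For Ms4a2 it was Cdkn1b (0.99), Phf13, Topors, Kap and Aco1, and for Hdc Mapk14 (0.99), Cort, B3gntl1, Egfl7 and Vamp3. These r rest on 8 arrays in 4 groups and describe the levels only.

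Other genes of mast cell and basophil biology, 48 listed apart from the members, are given with the p-values of the same fit. This list, too, was written with earlier results of these data known, so its counts and p-values are no independent support. Of these, 37 were measured and 34 tested, and 11 have no probe set named for them in the annotation used, among them Il1rl1, the gene of the IL-33 receptor chain. In uninjured muscle against bone marrow, 6 of the 34 were called higher, 0 lower and 28 did not pass, beside the shares of all genes above. The 4 with the smallest p encode signals and enzymes around mast cells: Tslp, an epithelial and stromal cytokine, Mitf, a transcription factor that mast cells need, Kitl, the stem cell factor that keeps mast cells alive, and Tph1, which makes serotonin. In bone marrow Tslp, Kitl and Tph1 were under the filter value on both arrays, so their folds are bounds. Tslp was at least 3.57-fold higher in uninjured muscle (limma adjusted p = 0.000705). Mitf had a log2 difference of 2.43 (SE 0.30, limma adjusted p = 0.00287). Kitl was at least 29.2-fold higher by the arithmetic mean (limma adjusted p = 0.00371 on the log2 values). Its uninjured muscle mean of 1232 had an SD of 1193 (n = 2), so the lower of these arrays lay well below that fold. Tph1 was at least 3.22-fold higher (limma adjusted p = 0.0115), a call kept in 9 of the 13 alternative settings. The other called genes were Il33, an alarm cytokine of stromal cells that activates mast cells, and Fcer1g, whose call (log2 difference 1.02, limma adjusted p = 0.0307) was lost in 7 of the 13. The 0 lower genes compare with 4 at an unadjusted limma p under 0.05. The fibroblast and macrophage sums given above were higher in uninjured muscle too, and their part was not tested.

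The receptor tyrosine kinase Kit, which binds stem cell factor and is carried by mast cells and by blood progenitors, measured 231 and 191 in bone marrow, with 298 and 289 in uninjured muscle, 45.6 and 19.5 in untransplanted injured muscle, and 1.02 and 12.9 in transplanted injured muscle. Its injured arrays were all far below the uninjured ones. Kit fell by 3.12 on the log2 scale in untransplanted injured against uninjured muscle (SE 0.62, limma adjusted p = 0.0100), a call lost without the second array of that injured group (limma adjusted p = 0.0724). In transplanted injured muscle it was at least 7.02-fold lower than in uninjured muscle (limma adjusted p = 0.00135). The injured groups differed by -1.89 (SE 0.62, limma adjusted p = 0.348), which did not pass.

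Gata2, a transcription factor of progenitors, mast cells and basophils, measured 444 and 469 in bone marrow, with 664 and 618 in uninjured muscle, 48.5 and 66.4 in untransplanted injured muscle, and 31.9 and 25.8 in transplanted injured muscle. It fell by 3.41 in untransplanted (SE 0.33, limma adjusted p = 0.00103) and was at least 15.2-fold lower in transplanted injured than in uninjured muscle (limma adjusted p = 0.000355). Like those of Kit, all 4 injured arrays were below all 4 uninjured ones. Fcer1g, the signalling chain of the IgE receptor that mast cells share with macrophages and other myeloid cells, went the other way, from 1113 and 1544 in uninjured muscle to 8211 and 8585 in untransplanted and 10120 and 9827 in transplanted injured muscle. It rose by 2.68 (SE 0.22, limma adjusted p = 0.000697) and by 2.92 (SE 0.22, limma adjusted p = 0.000317).

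**Figure D4:**
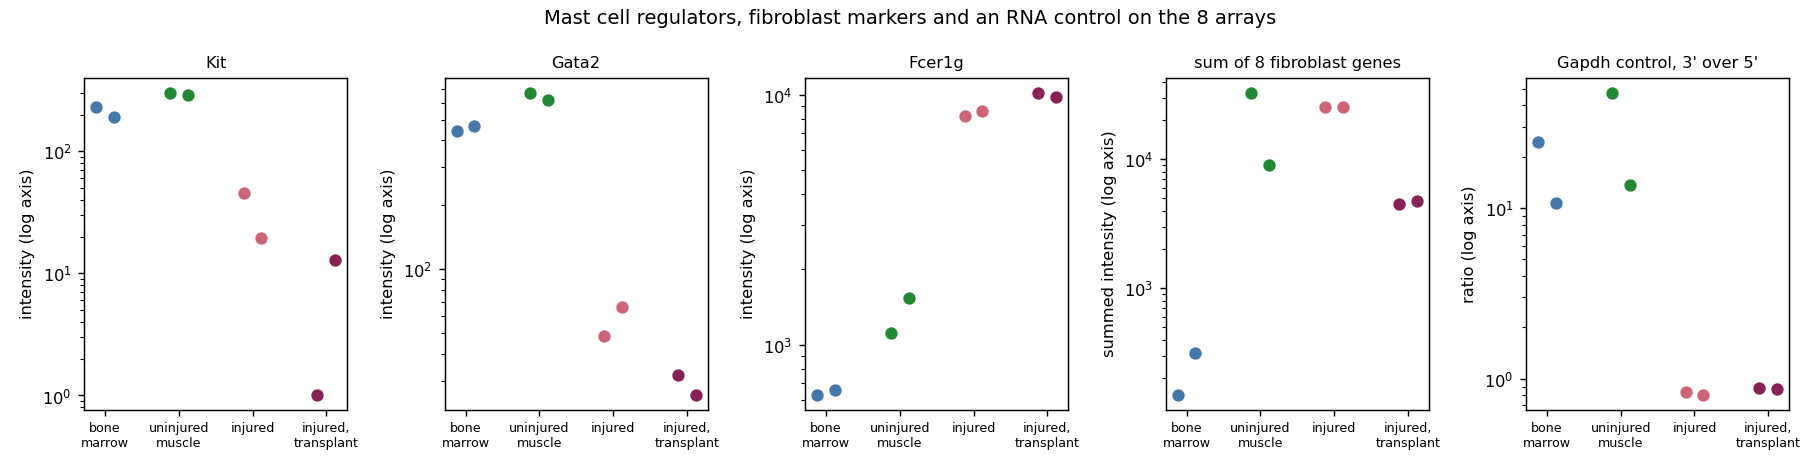
Intensity (log axis) on each of the 8 arrays of companion genes that are no members, the summed intensity of the 8 fibroblast genes, and the ratio of 3′ to 5′ Gapdh control probe sets, 1 panel each with 1 point per array. Kit, Gata2 and the Gapdh ratio are low on all 4 injured arrays, Fcer1g is high there, and the fibroblast sum is lowest in bone marrow, with transplanted injured muscle next.

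In untransplanted injured against uninjured muscle 8.77% of all tested genes were called higher and 15.1% lower. Over the whole companion list, 8 of 34 genes were called higher, 10 lower and 16 did not pass. The higher ones with the smallest p, besides Fcer1g, were Lat2, an adaptor of myeloid and B cells, which rose from 24.0 ± 1.70 to 444 ± 7.53 (SD, n = 2, at least 10.6-fold, limma adjusted p = 0.00136), Ptgs2, the inducible prostaglandin synthase, which rose by 2.90 (limma adjusted p = 0.00205), and Cysltr1, a leukotriene receptor, which rose by 2.84 (limma adjusted p = 0.00631, and 0.0527 without the second untransplanted injured array). The lower ones with the smallest p, besides Gata2 and Kit, were Lat, an adaptor of T cells and mast cells (log2 difference -3.26, limma adjusted p = 0.00255), and Ctsg (at least 10.3-fold, limma adjusted p = 0.00525). The Ctsg bound rests on an uninjured muscle mean of 434 with an SD of 316 (n = 2). The other 6 called lower were Kitl, Tph1 and Tslp, which had been called higher in uninjured muscle against bone marrow, with Itgb7, Mcpt2 and Tal1. Many of these are shared with other cells: Fcer1g, Lat2, Ptgs2 and Cysltr1 with macrophages and Ctsg with early granulocytes. The macrophage sum was higher in untransplanted injured muscle, and the 9 listed early granulocyte genes were all called lower. The part of these cells, and of the Gapdh ratio, in the companion calls was not tested. In transplanted injured against uninjured muscle 10 were called higher, 10 lower and 14 did not pass, beside 10.5% of all tested genes higher and 20.8% lower. The higher ones were led by Fcer1g, Lat2 (at least 23.5-fold, limma adjusted p = 0.000408), Gzmb (3.07, limma adjusted p = 0.000692) and Ptgs2 (2.69, limma adjusted p = 0.00173), and the lower ones by Gata2, Lat (-3.64, limma adjusted p = 0.00115), Kit and Ctsg (at least 10.3-fold, limma adjusted p = 0.00320).

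Between the injured groups 0.0421% of all tested genes were called higher and 0.274% lower. Of the 34 companion genes 1 passed as higher and 0 as lower, with 2 and 3 at an unadjusted limma p under 0.05. The higher one was Gzmb, granzyme B of cytotoxic lymphocytes and of some mast cells, at 1319 ± 103 with and 126 ± 16.7 without a transplant (SD, n = 2). Its log2 difference was 3.35 (SE 0.30, limma adjusted p = 0.0123), and the call was lost without any 1 of the 4 injured arrays (highest limma adjusted p = 0.352). Tpsab1, the tryptase next in kind to Tpsb2, was named here after its value was seen. It read 7.42 ± 0.672 with and 73.1 ± 4.30 without a transplant (SD, n = 2), a log2 difference of -2.76 that did not pass (SE 0.47, limma adjusted p = 0.0677). Of the other tested proteases of the list, Tpsg1 differed by -0.48 (SE 0.58), Ctsg by -0.16 (SE 0.65) and Mcpt2 by 0.70 (SE 0.71), which did not pass either. The median over the 34 was -0.21, against -0.00 over all genes.

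**Figure D5:**
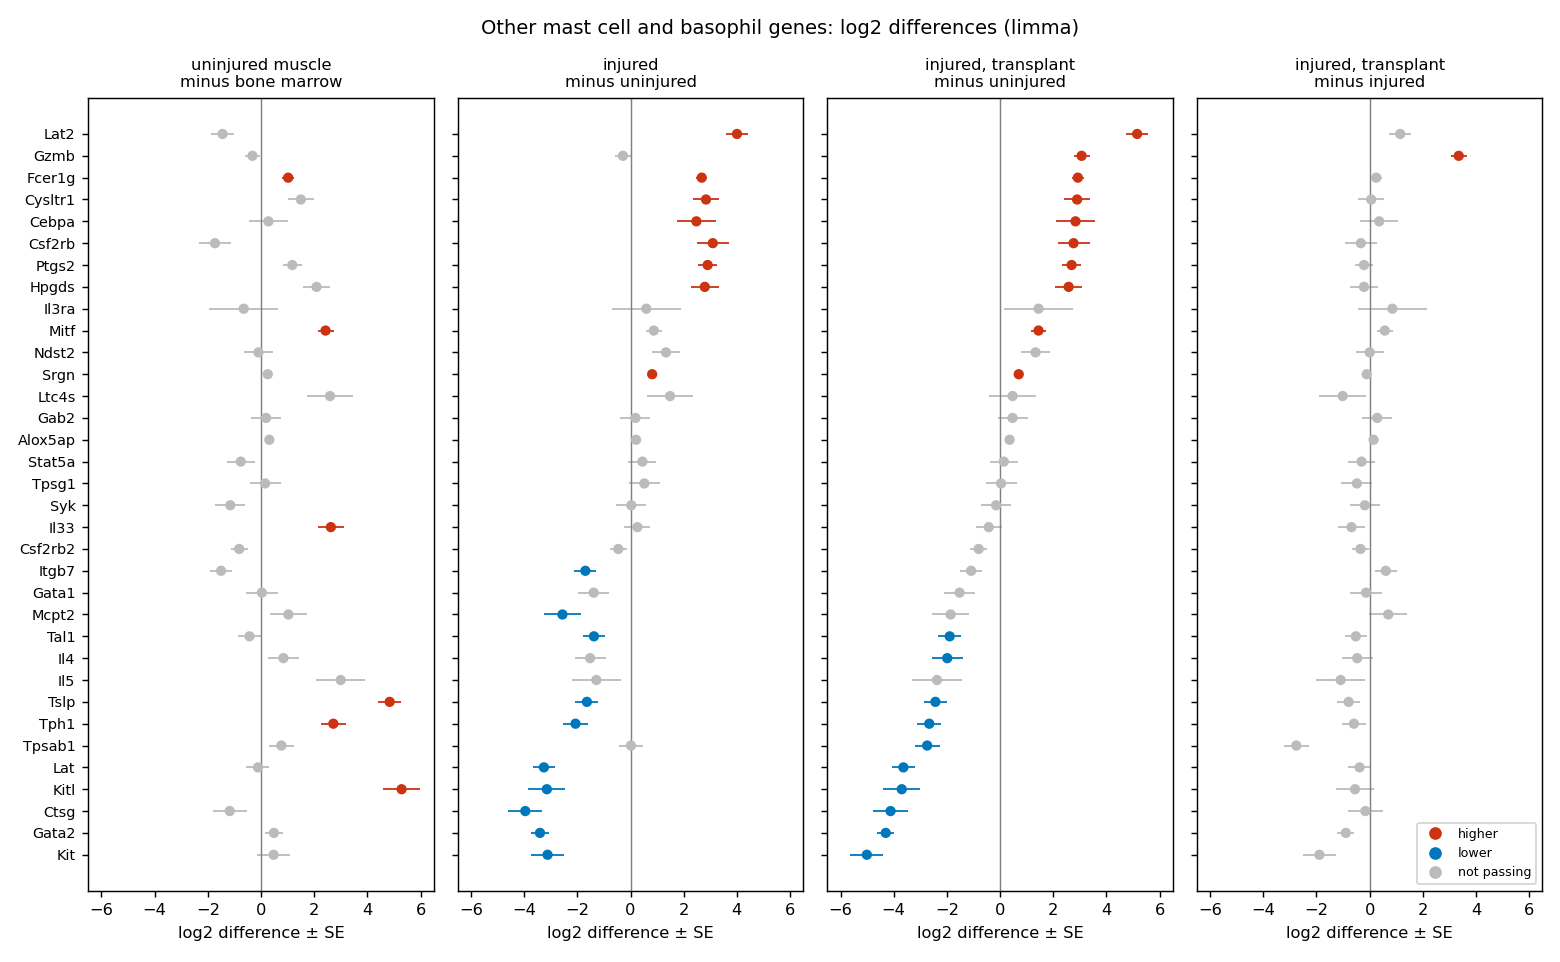
Log2 difference (x axis, bars of 1 SE from the limma fit, n = 2 arrays per group) of the tested companion genes, with those past the adjusted threshold of 0.05 marked. In the injured muscle comparisons Kit and Gata2 lie left of 0 and Fcer1g and Lat2 right, and between the injured groups only Gzmb passes, on the higher side.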

How the data were processed

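RNA of CD45+/Sca1+ cells (1 µg) was hybridised to Affymetrix Mouse430A arrays, per the labels' protocols. The deposited values are intensities on a linear scale, scaled per array by the authors (checked: each array's mean without the lowest and highest 2% is about 250.1). GCOS is named, with no version, per the submitters' processing notes; how probes were summarised is not given there. Nothing says that replicates are separate animals, so p-values reflect the spread of these arrays alone, possibly technical, and 2 arrays per group limit the precision (median SE 0.45).

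Control probe sets (64) were left out. Of 22626 others, 20380 had 1 gene, 691 several and 1555 none, and 20351 symbols were updated through gene identifiers. Values under 1 were set to 1, log2(value + 4) was taken, and 16289 probe sets with 2 or more arrays at the 40th percentile (38.4) were tested in limma 3.58.1 (R 4.3.3): 1 mean per group over all 8 arrays, eBayes with trend, two-sided, Benjamini-Hochberg over tested probe sets, threshold 0.05. The probe set of highest mean stood for a gene. The procedure was tested on simulated data. Folds are on the log2(value + 4) scale, apart from those written "at least". These compare the arithmetic mean of the higher group, plus 4, with the filter value plus 4. Neither array of the lower group reached the filter value in these cases. Where the arrays of the higher group lie apart, such a fold would be smaller on the log2 scale. Alternatives were quantile normalization, a pseudocount of 16, no filter, a replicate block, only the 4 arrays compared, leaving out each array, and the mean of a gene's probe sets.

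The members and all gene lists were chosen with earlier results of these data known. Named were the members, per comparison up to 4 companion genes of smallest p in each direction with Kit, Fcer1g and Gata2, the 5 genes most like each member, Ptprc, and the 2 highest genes of each marker list (megakaryocyte genes, led by Pf4 and Ppbp, summed to 532 to 1086, 5729 to 7984, 8238 to 9819 and 8229 to 9747 in the group order above). Postn and Tpsab1 were named outside this rule, after their values were seen, with further genes of their lists beside them. Ly6a, the gene of Sca1, is not used here, as the annotation names no probe set for it.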

Additional observations from a re-analysis of the deposited data

How the results depend on the processing

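The number of called probe sets depended most on single arrays and on the spread pooled over groups. For uninjured muscle against bone marrow it was 991, with 288 when only the 4 arrays compared were fitted and 511 to 3121 when 1 array was left out. Without the second uninjured muscle array the balance turned, with 1257 higher and 1864 lower against 787 and 204; it turned too in untransplanted injured (3287 and 2780 against 1973 and 2262) and transplanted injured against uninjured muscle (3423 and 3321 against 2268 and 3015). Without the first, untransplanted injured against uninjured muscle had 2122 and 1992, and with only its 4 arrays 1044 and 1027. For untransplanted injured against uninjured muscle it was 4235, with 2071 and 1323 to 6067, and for transplanted injured against uninjured muscle 5283, with 3011 and 2402 to 6744. For transplanted against untransplanted injured muscle it was 41 (4 higher, 37 lower), with 9 under quantile normalization (2 higher, 7 lower), 62 at a pseudocount of 16, 1125 with only the 4 arrays and 0 to 268 when 1 array was left out. Whether samples of 1 number in different groups share more than that number is not stated. The r of their deviations was 0.25 for bone marrow with uninjured muscle and -0.020 to 0.0017 for the other pairs, and the source of the first was not tested. With the replicate block the counts were 942, 4281, 5403 and 15 in the order above. Companion genes called higher in uninjured muscle against bone marrow were 6, with 2 on the 4 arrays and 3 to 9 when 1 array was left out, and 0 to 4 were then lower. In untransplanted injured against uninjured muscle 8 were higher (3 to 12 with 1 array left out) and 10 lower (6 on the 4 arrays, 3 to 9 with 1 left out). In transplanted injured against uninjured muscle 10 were higher (5 to 14). Between the injured groups 1 was higher (2 on the 4 arrays, 0 to 1) and 0 lower (2 on the 4 arrays, 1 with the mean of a gene's probe sets, 0 to 1). The median difference of the 8 genes ran from 2.17 to 2.83, from -2.00 to -1.23 and from -4.54 to -3.61 in the first 3 comparisons when 1 array was left out, and was -3.21 in the third at a pseudocount of 16. With 1 array left out, the lone array of that group is assumed to vary like the other groups. The causes of these shifts were not tested, beyond the fewer arrays and degrees of freedom that leaving arrays out brings. Quantile normalization moved the median of all genes in transplanted injured against uninjured muscle from -0.31 to -0.19.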
